A study of Homo sapiens with 6 samples.

Results

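Chromosome 20 carried more H3K27me3 per megabase than any of the other 22 chromosomes compared (1 to 22 and X) in H1299, a human cell line derived from non-small cell lung cancer. Its members were chosen by position, as all intervals on chromosome 20 in the 4 deposited peak lists, and the chromosome itself was chosen for its H3K27me3 density in these lists. There were 12157 such intervals of 275570 in all. The control H3K4me3 list held 1379 of them, the metformin H3K4me3 list 1497, the control H3K27me3 list 4642 and the metformin H3K27me3 list 4639. The study mapped H3K4me3 and H3K27me3 by chromatin immunoprecipitation and sequencing in untreated H1299 cells (control, no agent) and in H1299 cells given 5 mM metformin, a biguanide drug for type 2 diabetes. All libraries came from this 1 cell line at passage 10-15, and the labels give no length of treatment. Each mark and condition had 1 library, so differences between conditions have no replicate spread to be set against and no test was made. The 2 input libraries were not analysed here, and the lists hold no read counts. Depth per library and DNA copy number along the chromosome are therefore unknown, and their part in any value below was not tested.

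H3K27me3 is written by Polycomb repressive complex 2, which can spread the mark from a first site along neighbouring nucleosomes and so form broad repressed domains. H3K4me3 is written by the SET1 and MLL methyltransferase complexes, mainly at promoters in CpG islands, and marks promoters that are active or poised. The marks are largely kept apart on the same nucleosome tail, and places that carry both are called bivalent. In a cell population, overlap of the marks can also come from different cells or different alleles. Positions below are 1-based on hg19. No hg19 gene annotation or genome sequence was used, so intervals are given by position, without gene names or bases.

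The density of H3K27me3 on chromosome 20 came with a large number of intervals rather than with unusual width. In control 5.14 Mb was covered and after metformin 5.52 Mb, or 81.6 and 87.7 kb per Mb between the first and last interval. Chromosome 12 came next, with 48.1 and 51.2 kb per Mb. Chromosome 20 held 73.8 H3K27me3 intervals per Mb in control and 73.7 after metformin, against at most 41.0 (chromosome 17) and 42.3 (chromosome 22) elsewhere. Mean width on chromosome 20, 1106 and 1190 bp, was only the fifth and sixth largest, behind 1437 and 1556 bp on chromosome 12. Intervals of 10 kb or more made up 3.57% and 3.85% of the covered length, while they made up 17.7% on chromosome 19 in control and 19.9% on chromosome 12 after metformin. These H3K27me3 values include the ones that chose the chromosome and are given as a description.

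H3K4me3, which played no part in the choice, was less extreme. Its intervals summed to 1.38 Mb in control and to 1.55 Mb after metformin. At 21.9 and 24.8 kb per Mb, chromosome 20 ranked 5 of 23 in both lists, where chromosome 19 had 58.4 and 68.9 kb per Mb. The median deposited value of an H3K4me3 interval, read as a −log10 q, was 5.59 in control and 5.81 after metformin. That is below the median of the other chromosomes in both lists, 5.78 and 6.25.

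**Figure D1:**
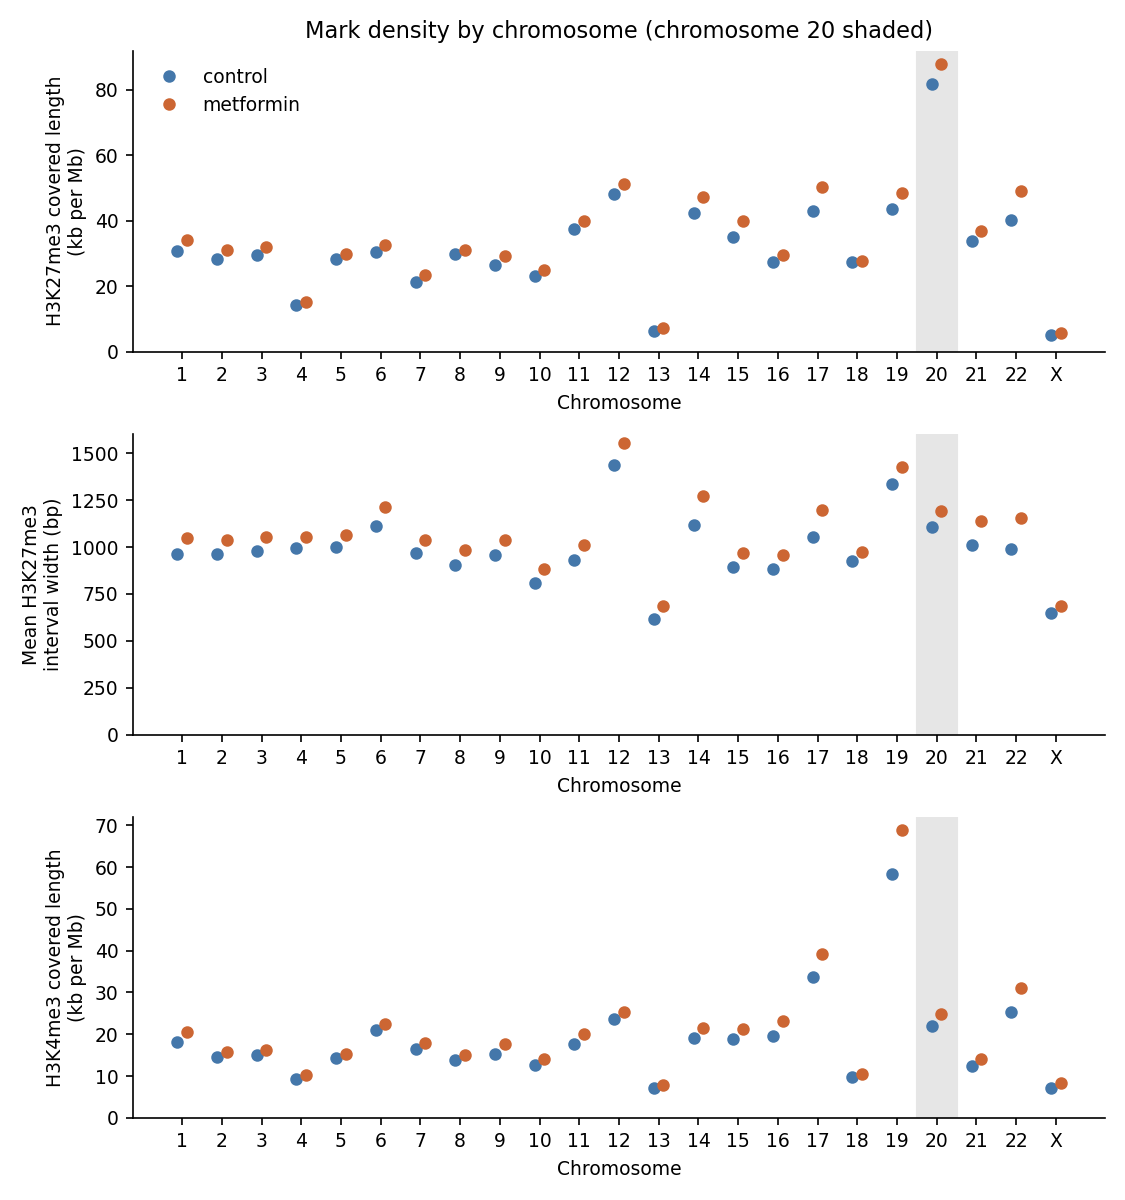
Covered length per Mb of H3K27me3 (top), mean H3K27me3 interval width in bp (middle) and covered length per Mb of H3K4me3 (bottom) for 23 chromosomes; each point is 1 library. Chromosome 20 (shaded) stands at 81.6 and 87.7 kb per Mb in the top panel, above every other chromosome, but among the others in the lower panels.

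Both marks covered more of chromosome 20 in the metformin lists, by amounts close to the middle of the chromosomes. The H3K4me3 length after metformin was 1.13 times that in control (rank 8 of 23, median 1.12), and the mean −log10 q, weighted by length, was 25.6 in control and 29.4 after metformin. The H3K27me3 length was 1.07 times that in control (rank 16, median 1.10), with weighted means of 1.67 and 1.69. The number of H3K27me3 intervals hardly differed, and the larger length came with wider intervals.

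H3K4me3 sites on chromosome 20 were mostly found in both lists. A metformin interval overlapped 1064 of the 1379 control intervals (77.2%, exact Clopper-Pearson 95% interval 74.8 to 79.3 for counting error only), and 315 (22.8%) were in the control list alone, against 22.7% over the whole list. In the other direction 968 of 1497 (64.7%, 62.2 to 67.1) were overlapped, and 529 (35.3%) were in the metformin list alone, against 32.7% over the whole list. All 210 control and 253 metformin intervals of 2 kb or more had a partner. Intervals of a single list were short (median 255 bp in control, 262 bp with metformin). Of these, 68.6% and 62.2% lay less than 1 kb from an interval of the other list.

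For H3K27me3 on chromosome 20, 2473 of the 4642 control intervals (53.3%, 51.8 to 54.7) and 2396 of the 4639 metformin intervals (51.6%, 50.2 to 53.1) were overlapped by the other list. These shares were 33.2% and 29.9% when at least 50% of the interval had to be covered. Intervals of 1 list alone made up 46.7% in control and 48.4% after metformin, somewhat less than over the whole lists, 51.7% and 53.7%. The density for which the chromosome was chosen favours overlap, so nothing is read from this difference. The shared sequence was 2.38 Mb, which is 46.4% of the control and 43.1% of the metformin length. Width mattered: 31.7% and 29.8% of intervals under 500 bp were overlapped, but 164 of 165 and 199 of 199 of those of 4 kb or more, which a partner touches more easily. As a share of length these wide intervals were shared to 68.9% and 65.1%. Of the chromosome 20 values 99.8% in control and 99.6% after metformin were under 3, and the median was 1.52 in both lists.

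The highest H3K4me3 values on chromosome 20 belonged to promoter-sized or broader intervals present in both lists. In control they were chr20:47895165-47904458 (−log10 q 84.7), chr20:42836887-42839411 (78.6), chr20:30327099-30331310 (77.7), chr20:33262877-33264888 (72.7) and chr20:39657501-39662518 (65.4). After metformin they were chr20:32399224-32401908 (78.8), chr20:32951109-32953830 (78.5), chr20:33102681-33105335 (77.3), chr20:30325713-30330465 (76.9) and chr20:34040232-34042590 (76.5). Only the site near 30.3 Mb, a 4212 bp interval in control and 4753 bp after metformin, was among the leading 5 of both lists. No H3K27me3 of the same condition touched any of these 10 intervals. No change is read from values of different lists, since a higher −log10 q can come from deeper sequencing.

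The leading H3K4me3 intervals without a partner had values well under these. After metformin the leading ones were chr20:47805137-47805740 (27.5), 312 bp from a control interval, and chr20:30249638-30250082 (21.6), 42.6 kb from one. They were followed by chr20:61505234-61505660 (13.4), chr20:62328069-62329616 (12.5) and chr20:31172396-31172625 (12.1), at distances of 13017, 477 and 1034 bp. In control they were chr20:62440816-62442031 (12.5), chr20:48227202-48227736 (9.87), chr20:57198561-57198938 (9.12), chr20:48687756-48687918 (8.44) and chr20:62284528-62284741 (8.01). Those near 48 Mb, with values of 9.87 and 8.44, lay 63.8 and 32.1 kb from the nearest metformin interval, and the others within 318 bp.

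The chromosome was divided into arms at its longest stretch without an interval of any list, chr20:26193197-29469867 (3.28 Mb), which spans the centromere. The short arm then ran over 26.1 Mb and the long arm over 33.5 Mb. H3K4me3 differed between the arms more than H3K27me3 did. On the short arm H3K4me3 covered 15.5 kb per Mb in control and 17.4 after metformin, and on the long arm 29.0 and 32.8, which is 1.87 and 1.88 times as much. H3K27me3 covered 74.4 and 77.0 kb per Mb of the short arm and 95.3 and 104.7 of the long arm, 1.28 and 1.36 times as much. The number of H3K27me3 intervals per Mb was similar on both arms, 74.5 and 80.5 in control, and the long arm had the wider ones, with means of 999 and 1184 bp. Either arm alone had more H3K27me3 per Mb than any other whole chromosome, which the choice of chromosome 20 for this density favours. The arm spans leave out the centromere stretch, while whole chromosomes were measured from first to last interval. Arms of other chromosomes are not given. The metformin to control ratio of H3K27me3 length was 1.03 on the short arm and 1.10 on the long arm, while for H3K4me3 it was 1.12 and 1.13.

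H3K27me3 was unevenly spread along both arms. The 10 fullest 1 Mb bins held 40.6% of its length in control and 40.5% after metformin, against 43.5% and 43.2% for H3K4me3 in its own 10 fullest. Bins with 100 kb or more of H3K27me3, 23 in control and 25 after metformin, held 73.4% and 76.4% of it. The fullest bin, 37 to 38 Mb, had 280.4 kb of it in control and 309 kb with metformin. Next came 44 to 45 Mb with 249 and 288 kb, 1 to 2 Mb with 233 and 235 kb, 2 to 3 Mb with 210 and 223 kb, and 36 to 37 Mb with 194 and 228 kb. The bin at 31 to 32 Mb held 191 and 224 kb, so that 4 bins in control and 6 after metformin had 200 kb or more. Over all 23 chromosomes 257 control bins held 100 kb or more, and 23 of them (8.95%) were on chromosome 20. After metformin it was 25 of 301 (8.31%). Bins with any H3K27me3 numbered 60 on chromosome 20, of 2083 in control and 2128 after metformin over all chromosomes. The density for which the chromosome was chosen favours a high share of the full bins, so nothing is read from it. The single fullest bin of chromosome 20 was number 14 of all bins in control and number 12 after metformin. At the other end, 13 bins of chromosome 20 held less than 10 kb in each list, among them the bins from 26 to 29 Mb, nearly all of which lie in the interval-free stretch.

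H3K4me3 had its peaks elsewhere. Its fullest bins were 30 to 31 Mb (73.4 kb in control, 81.8 kb after metformin), 62 to 63 Mb at the end of the long arm (71.9 and 96.8 kb), 33 to 34 Mb (63.4 and 63.9 kb), 3 to 4 Mb (61.8 and 68.7 kb) and 44 to 45 Mb (61.6 and 70.3 kb). Only the last of these was also among the 5 fullest for H3K27me3. The bins at 33 to 34 Mb and 3 to 4 Mb held 3.21 and 13.3 kb of H3K27me3 in control, although the chromosome's fullest H3K27me3 bins lay within a few megabases of them. Over the 60 bins with any mark in control, leaving out bins within the centromere stretch, the Spearman correlation of the 2 marks was 0.37, and over 59 bins after metformin 0.44. Bins share base composition and mappability, so this is a description of the chromosome and not a test.

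**Figure D2:**
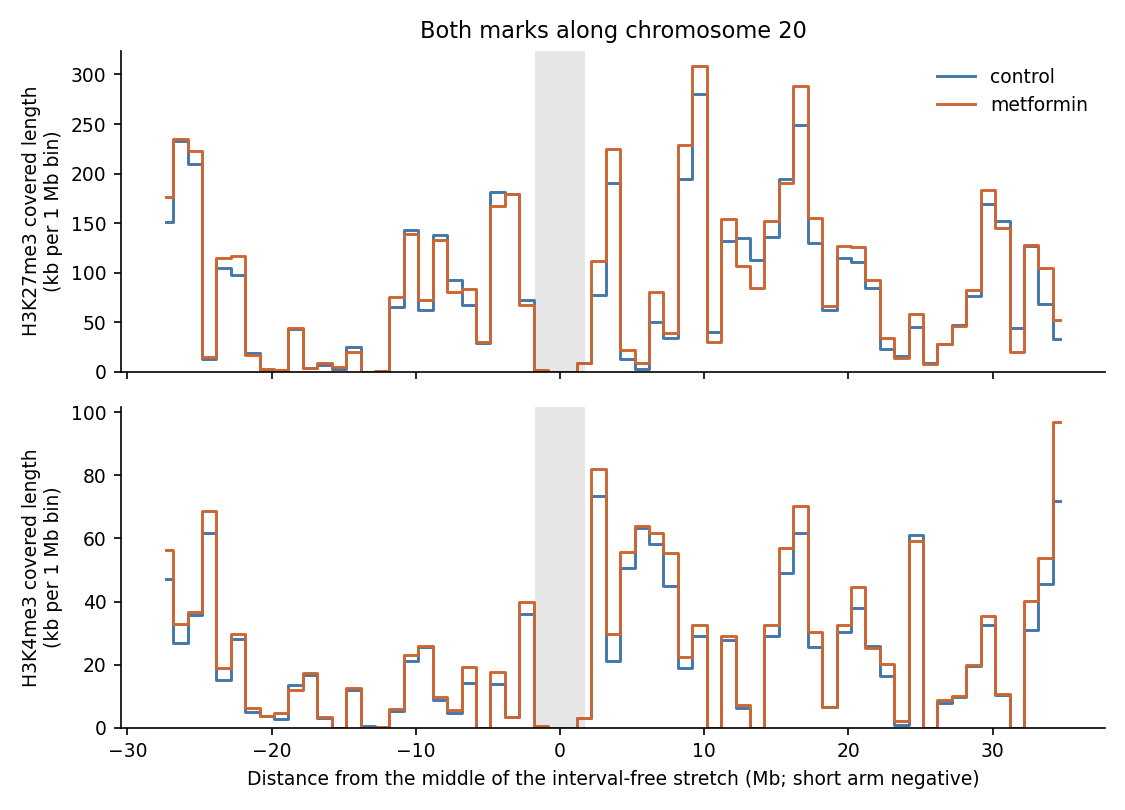
Covered length of H3K27me3 (top) and H3K4me3 (bottom) in kb per 1 Mb bin, by distance in Mb from the middle of the interval-free stretch (grey), for the control and metformin libraries. The metformin line follows the control line closely, and several bins tall in one panel are short in the other.

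The order of the bins was nearly the same in both conditions, with a Spearman correlation between control and metformin of 0.99 over 55 bins for H3K4me3 and also 0.99 over 60 bins for H3K27me3. Among bins with at least 10 kb in both lists, H3K4me3 was larger after metformin in 35 of 38 (92.1%, against 80.8% over all chromosomes), and 9 (23.7%) were at 1.2 times or more, against 21% of bins over all chromosomes. The largest differences in length were at 62 to 63 Mb (24.9 kb), 35 to 36 Mb (10.5 kb) and 0 to 1 Mb (9.20 kb). No bin was at 1.2 times or more in control, against 0.73% over all chromosomes. Bins with less H3K4me3 after metformin differed little, by -1.99 kb at 52 to 53 Mb, -1.58 kb at 9 to 10 Mb and -0.82 kb at 49 to 50 Mb.

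H3K27me3 was larger after metformin in 34 of 50 bins (68%, against 70.2% over all chromosomes), with a median ratio of 1.09 both here and over all chromosomes. Of the 50 bins, 8 (16%) were at 1.2 times or more after metformin, against 30.3% over all chromosomes, and 6 (12%) were at 1.2 times or more in control, against 6.85%. The latter count fell to 1 with bins of 2 Mb and to 2 with bins shifted by 0.5 Mb. The largest gains in length after metformin were at 44 to 45 Mb (39.4 kb), 61 to 62 Mb (37.1 kb, from 68.0 to 105 kb) and 36 to 37 Mb (33.9 kb). The largest losses were at 40 to 41 Mb (-29.1 kb, from 135 to 106 kb), 41 to 42 Mb (-27.9 kb, from 113 to 84.6 kb) and 59 to 60 Mb (-23.6 kb, from 43.7 to 20.2 kb).

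Of the 16 bins with less H3K27me3 after metformin 10 were poor in H3K4me3, a pattern found after the values were seen. In the 14 bins with under 10 kb of control H3K4me3 the median metformin to control ratio of H3K27me3 was 0.94, and 4 of them were above 1. With 10 to 30 kb of H3K4me3 it was 1.10, with 15 of 19 above 1, and with 30 kb or more it was 1.15, with 15 of 17 above 1. The Spearman correlation between control H3K4me3 and this ratio was 0.66 over the 50 bins. On the other chromosomes the medians followed the same order, 1.03, 1.09 and 1.19, with the lowest class above 1, and the correlation was 0.30 over 1177 bins. Whether chromosome 20 differs from them was not tested.

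**Figure D3:**
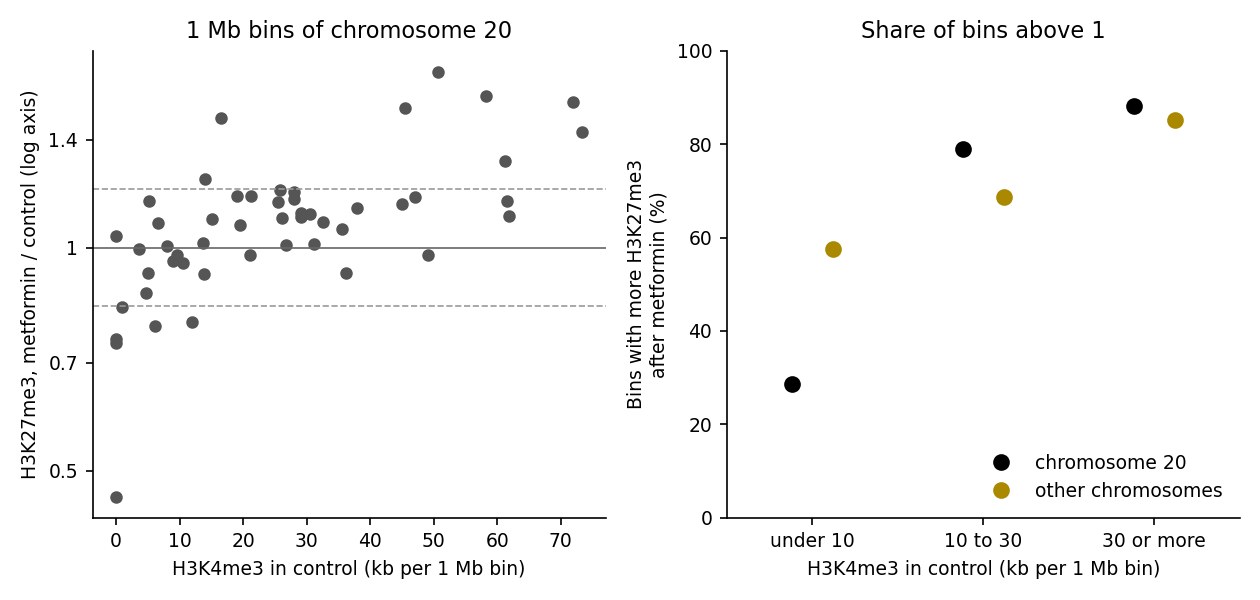
Left, metformin to control ratio of H3K27me3 covered length (log axis) against control H3K4me3 in kb, for the 50 bins of chromosome 20 with at least 10 kb of H3K27me3 in both lists; dashed lines mark a ratio of 1.2 in either direction. Right, the percentage of bins above 1 in 3 classes of control H3K4me3. On chromosome 20 it goes from 28.6% through 78.9% to 88.2%, and on the other chromosomes from 57.5% to 85.2%.

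The same H3K27me3 intervals were also summed over stretches of 500 kb or more without H3K4me3 in either list. This choice came after the values were seen and takes in many of the same H3K4me3-poor bins, so it adds no independent support. There were 21 such stretches on chromosome 20, 24.9 Mb in all. Their H3K27me3 amounted to 1702 kb in control and 1662 kb after metformin, a ratio of 0.98. On the rest of the chromosome it was 3434 and 3858 kb, a ratio of 1.12. Of the 15 stretches with at least 10 kb of H3K27me3 in both lists, 9 had less after metformin. At chr20:58824596-60637619 (1.81 Mb) 167 control intervals covered 162 kb, and 143 metformin intervals covered 139.8 kb. The stretch chr20:40324057-42082507 (1.76 Mb) held 224 and 177 kb, the largest difference. In contrast chr20:31412835-31986600 had 175 kb in control but 199.8 kb with metformin, and at 305 kb per Mb in control it was the densest. The ratio inside the stretches was on the other side of 1, at 1.03, among H3K27me3 intervals with a value of 1.5 or more, and 1.02 with stretches of 200 kb or more. It stayed below the ratio outside, 1.16 in both cases. On the other chromosomes the ratios were 1.00 inside and 1.12 outside.

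Stretches without H3K27me3 ranged from those with much H3K4me3 to those with hardly any mark. Each H3K27me3 list had 13 gaps of 500 kb or more, 13.3 Mb in control and 13.4 Mb after metformin. Apart from the centromere stretch, all 4 lists left out 2 stretches of that length, chr20:53308531-54734034 (1.43 Mb) and chr20:14318273-15467264 (1.15 Mb). The next longest, chr20:15467467-15885844 (418 kb) and chr20:8582908-8995565 (413 kb), were much shorter. Other gaps held much H3K4me3. The gap chr20:33832627-34570098 of both H3K27me3 lists (737 kb) held 56 H3K4me3 intervals in control and 48 after metformin, with 59.2 and 58.9 kb. The gap chr20:62145535-62716564 (571 kb) held 68 and 84, with 63.9 and 84.1 kb. Others lay in between: chr20:10154738-10670980 (516 kb) held 16.8 and 16.2 kb of H3K4me3, and chr20:8528638-9491079 (962 kb) 12.5 and 11.6 kb.

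Long H3K27me3 regions, of 10 kb or more, numbered 15 on chromosome 20 in control (0.323% of its intervals) and 14 after metformin (0.302%), against 0.245% and 0.336% over the whole lists. The order of the counts turned at other settings, with 92 and 112 from 5 kb, 0 and 2 from 20 kb, and 55 and 65 after intervals within 1 kb were merged. All 29 lay on the long arm, where Polycomb-marked sequence was also densest. On the short arm the widest interval measured 9041 bp in control and 8804 bp with metformin. The limit of 10 kb divides a continuous range: the narrowest regions inside it measured 10131 bp (control) and 10152 bp (metformin), and the widest outside it 9910 and 9403 bp.

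None of these long regions was without H3K27me3 in the other list. Joined across conditions they made 25 sites, of which 4 had a region of 10 kb or more in both lists, 11 in control alone and 10 after metformin alone. The same division over all chromosomes is not given, so it is not read as particular to chromosome 20. The other list covered a median of 86.7% of a control region, in 1 to 4 intervals, and 80.4% of a metformin region, in 1 to 7 intervals. In both lists the median long region faced 3 intervals of the other list.

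The longest control regions were chr20:43881177-43897679 (16.5 kb) and chr20:37523635-37539161 (15.5 kb). Metformin intervals covered 84.2% of the first in 4 parts of at most 7.98 kb and 89.7% of the second in 3 parts of at most 8.60 kb. Next were chr20:31782963-31797089 (14.1 kb), which lay wholly within a metformin interval of 20.1 kb, and chr20:36049123-36063224 (14.1 kb), whose longest metformin partner had 16.5 kb. The following 6 were chr20:36077075-36090139 (13.1 kb), chr20:36105064-36117764 (12.7 kb), chr20:37322113-37334685 (12.6 kb), chr20:43771768-43783303 (11.5 kb), chr20:44920689-44931534 (10.8 kb) and chr20:44163809-44174561 (10.8 kb). The region at 37.3 Mb was matched by a metformin interval of 12.5 kb, and the other 5 by intervals of 5.71 to 8.31 kb.

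After metformin the longest was chr20:31811667-31836434 (24.8 kb), of which 5 control intervals, none over 7.78 kb, covered 86.1%. With chr20:31777621-31797679 (20.1 kb) and chr20:31846230-31858710 (12.5 kb) it lies in the densest stretch without H3K4me3. Least covered in control was chr20:37282336-37301196 (18.9 kb), with 39.8% in 7 control intervals of at most 2.29 kb, and it also held 3 short H3K4me3 intervals after metformin and none in control. Control intervals covered 84.7% of chr20:37698569-37715709 (17.1 kb) in 3 parts, 77.7% of chr20:57343009-57360119 (17.1 kb) in 4 parts, 66.6% of chr20:45054413-45069551 (15.1 kb) in 5 parts and 84.8% of chr20:30541629-30555775 (14.1 kb) in 2 parts. The regions chr20:36045340-36061833 (16.5 kb) and chr20:37321581-37334062 (12.5 kb) had control partners of 14.1 and 12.6 kb. The metformin region at 57343009 directly follows a control region, chr20:57332770-57342900 (10.1 kb), which was in 3 parts after metformin, so the division went both ways in neighbouring sequence.

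**Figure D4:**
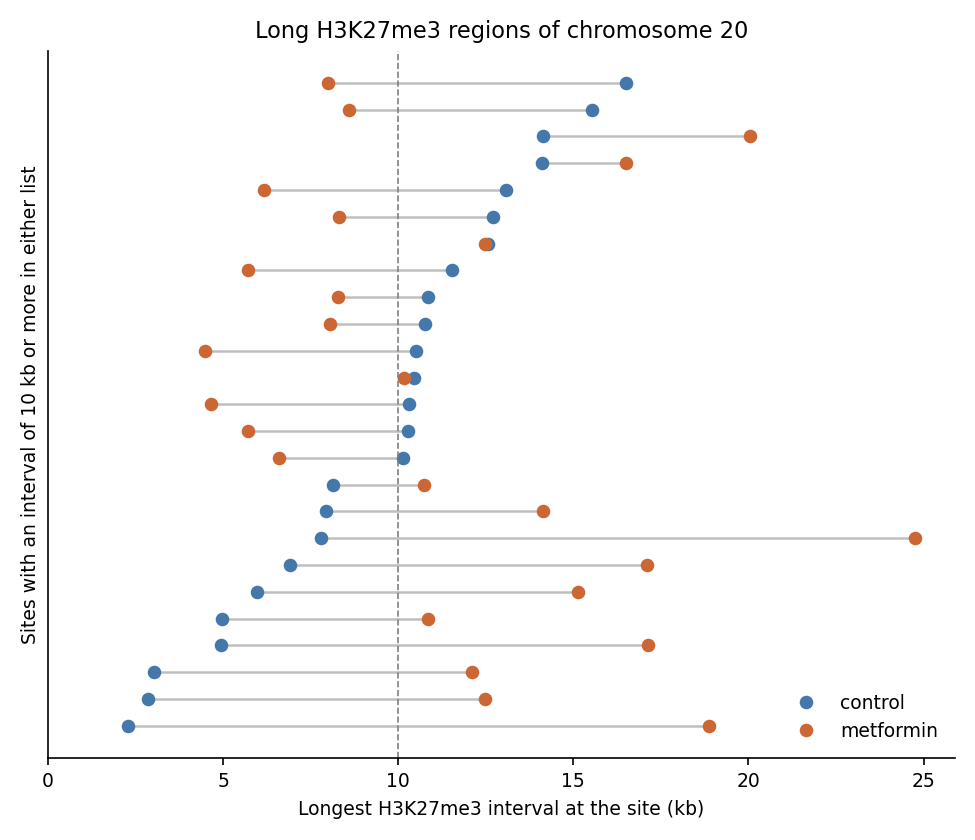
Longest H3K27me3 interval (kb) in control and after metformin at each of the 25 chromosome 20 sites with an interval of 10 kb or more in either list; grey lines join the 2 libraries at a site, and the dashed line marks 10 kb. At 4 sites both points lie to the right of the line, at 11 only control and at 10 only metformin.

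Much of the H3K27me3 lay in runs of shorter intervals. When intervals less than 10 kb apart were chained, 38 control chains spanned 100 kb or more and held 46.2% of the covered length, and 45 metformin chains held 55.0%. The density for which the chromosome was chosen favours long chains, and shares for other chromosomes are not given. Nothing particular to chromosome 20 is therefore read from these chains. The longest control chain was chr20:1594421-1882727 (288 kb), with 91 intervals over 33.2% of it. The longest metformin chain was chr20:31511825-31925066 (413 kb), with 92 intervals over 48.3% of it.

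The longest H3K27me3 intervals of a single list were 4.02 kb or less and lay close to the other list. In control they were chr20:55026474-55030488, chr20:41045925-41049709, chr20:58205054-58208786, chr20:4422459-4425706 and chr20:1911808-1914927, from 40 to 793 bp from a metformin interval. After metformin they were chr20:47993219-47996827, chr20:892066-895067, chr20:52854044-52856993, chr20:49686902-49689843 and chr20:23985247-23988153, from 102 to 1801 bp from a control interval.

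Sites with both marks were more frequent on chromosome 20 than on any of the other 22 chromosomes, which its choice for H3K27me3 density favours. In control 72 of 1379 H3K4me3 intervals (5.22%, 4.11 to 6.53) were overlapped by H3K27me3, against 2.78% over the whole list. After metformin it was 131 of 1497 (8.75%, 7.37 to 10.3), against 4.55%. The share of H3K4me3 length under H3K27me3 was 2.04% in control and 3.26% after metformin, the highest of the chromosomes. Divided by the share of the chromosome under H3K27me3 it was 0.25 and 0.37, rank 19 of 23 in both lists, with medians of 0.33 and 0.58. The divisor is the density for which the chromosome was chosen. A high density favours high shares and a low quotient, so nothing is read from these ranks.

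Sequence under both marks came to 28.0 kb in control and 50.6 kb after metformin. With control H3K4me3 and metformin H3K27me3 it was 34.5 kb at 98 intervals, and with the lists exchanged the other way 37.8 kb at 93 intervals, so each list contributed. Of the 72 control sites, 47 overlapped a metformin H3K4me3 interval that itself touched H3K27me3. The touch could lie outside the control site, as at chr20:25064545-25065748, which had 0 bp of H3K27me3 after metformin. Of the rest, 8 kept only H3K4me3 and 12 only H3K27me3, 4 had neither and 1 had both without contact. Of the 131 metformin sites, 42 overlapped a control H3K4me3 interval that touched H3K27me3. In control 32 had only H3K4me3, 28 only H3K27me3, 27 neither and 2 both without contact. The same counts over all chromosomes are not given, so none of these is read as particular to chromosome 20. The short arm held 23 of the control and 36 of the metformin sites. The bin at 30 to 31 Mb, the fullest in H3K4me3, held the most, 8 in control and 16 after metformin, and 37 to 38 Mb, the fullest in H3K27me3, held 4 and 11.

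These sites had modest H3K4me3. Their median −log10 q was 4.10 in control and 4.38 after metformin, against 5.64 and 6.20 for the other H3K4me3 intervals. They were also narrower, with median widths of 434.5 and 406 bp against 530 and 527 bp. Where H3K4me3 reached a −log10 q of 20, 1 of 306 intervals in control and 11 of 394 after metformin were overlapped, and none of the 36 and 47 broad domains was.

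The longest contact in control was at chr20:30553886-30555453, with 1524 of its 1568 bp under H3K27me3. After metformin the interval there, chr20:30553814-30555481, lay under H3K27me3 over all of its 1668 bp, at the edge of the long region chr20:30541629-30555775. The other control sites were chr20:34680690-34682991 (1211 bp under H3K27me3, and 1017 bp at the same place after metformin) and chr20:34742769-34744684 (1195 bp, with H3K4me3 alone after metformin). They were followed by chr20:33813039-33814317 (1092 bp, and 811 bp after metformin) and chr20:25064545-25065748 (837 bp, with H3K4me3 but 0 bp of H3K27me3 after metformin). After metformin the longest was chr20:30607310-30609178, with 1714 of 1869 bp, where both marks met over 1076 bp in control. The others were chr20:47935150-47936465 (1316 bp, 756 bp in control), chr20:31173535-31175013 (1036 bp, 924 bp in control) and chr20:44937404-44938698 (1031 bp, 881 bp in control). All 4 of these sites had both marks in control too, over a shorter length, which their choice by length after metformin favours.

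Around wide H3K4me3 intervals H3K27me3 was sparse on this chromosome, despite its density. At the centre (within 0.5 kb) of intervals of 2 kb or more, 0.35% of positions were under H3K27me3 in control and 0.77% after metformin. At 15 to 20 kb from the centre the share was 2.89% and 4.34%, still below the 8.61% and 9.26% of the chromosome outside the centromere stretch. Around H3K4me3 intervals under 1 kb there was hardly a dip, with 5.08% and 7.65% at the centre and 6.34% and 7.82% at 15 to 20 kb. The median distance from an H3K4me3 interval to the nearest H3K27me3 interval was 42.2 kb in control and 33.3 kb after metformin. For broad domains it was 70.9 and 42.5 kb.

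**Figure D5:**
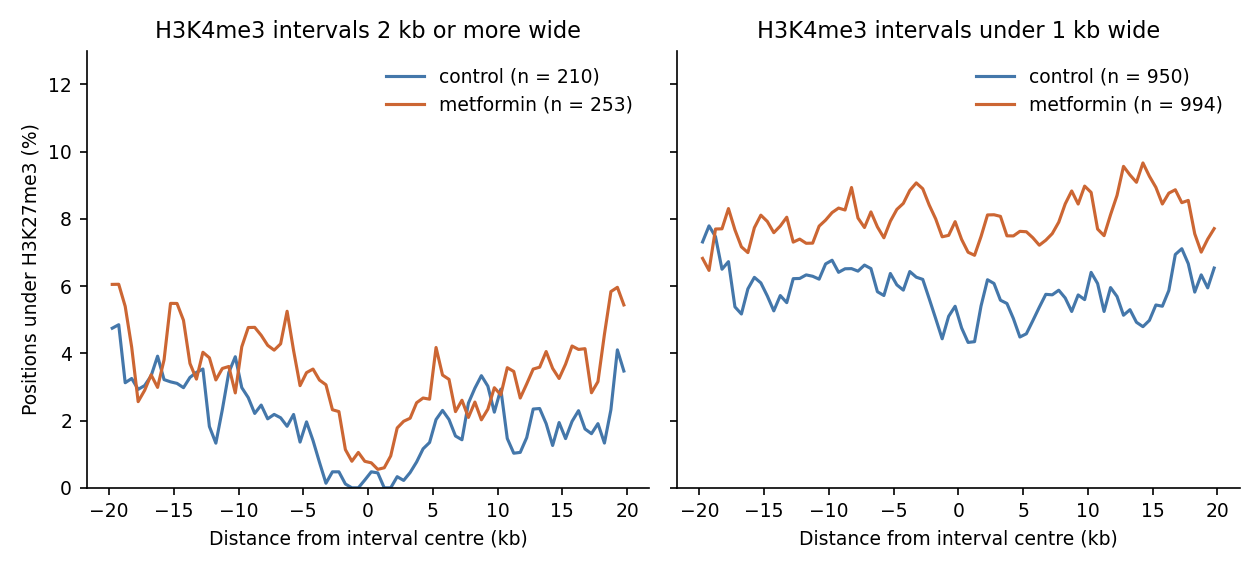
Percentage of positions under H3K27me3 of the same condition by distance (kb) from the centre of chromosome 20 H3K4me3 intervals of 2 kb or more (left) and under 1 kb (right), in steps of 500 bp. Within 0.5 kb of the centre the left curves average 0.35% (control) and 0.77% (metformin), while the right curves average 5.08% and 7.65% there.

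Broad H3K4me3 domains of 4 kb or more, a width often seen at cell identity genes and highly active promoters, numbered 36 in control (2.61% of intervals, against 2.44% over the whole list) and 47 after metformin (3.14%, against 2.98%). Of these 28 were broad in both lists, 8 in control alone and 19 after metformin alone, and all had an interval in the other list. How broad domains of all chromosomes divide in this way is not given. The metformin list also held more broad domains over all chromosomes, 1595 against 1236. The short arm held 9 of the control and 14 of the metformin domains. The longest was the same in both lists, chr20:47895165-47904458 (9294 bp) in control and chr20:47895206-47904714 (9509 bp) after metformin. Second was chr20:43969535-43976983 (7449 bp), which after metformin was chr20:43968451-43977592 (9142 bp). Then came chr20:45978324-45985433 (7110 bp), chr20:52222200-52229250 (7051 bp) and chr20:36659085-36665927 (6843 bp) in control, with longest metformin partners of 6290, 5023 and 5366 bp. After metformin they were chr20:30304380-30312212 (7833 bp), chr20:45979125-45985414 (6290 bp) and chr20:52351889-52358058 (6170 bp), with longest control partners of 5534, 7110 and 5652 bp.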

How the data were processed

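Chromatin was cut with micrococcal nuclease and precipitated with an antibody against each mark, per the labels' protocols. Trimmomatic 0.38, Bowtie, MACS2 and the builds hg19 and GRCh37 appear in the submitters' processing notes. Options and background library: not given in the sources used here. Every deposited list belongs to 1 library. The authors' deposited value per line was read as a −log10 q, inferred from the values: those of H3K4me3 on chromosome 20 start at 1.31, just above the −log10 of 0.05. Those of H3K27me3 start lower, at 1.01 in control and 1.02 after metformin, just above the −log10 of 0.1. No counts are given, so depth is unknown. Values of different lists, where set side by side, can show neither a change in signal nor its absence. A deeper library gives more and wider intervals.

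Lines with the same interval were joined, keeping the highest value. Covered length was summed per list, arm and 1 Mb bin. Overlap meant at least 1 bp, and exact Clopper-Pearson 95% intervals cover counting error only. Bins needed 10 kb of a mark in both lists. Overlap counts equalled those of bedtools 2.31.1, and the code was tested on simulated data. Regions were named by rank in value, width, overlap or difference, except H3K4me3-free stretches, chains, gaps after the fifth and neighbours in the text, which were chosen after their values were seen. The members and limits were chosen with earlier results of these data known. Alternatives were thresholds on the value, merging within 1 kb, equal list length, other bins and other limits. Software: matplotlib 3.10.9, scipy 1.17.1, numpy 2.4.6, pandas 2.3.3 and Python 3.11.15.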

Additional observations from a re-analysis of the deposited data

How the results depend on the processing

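No paired analysis was possible because every group is a single library, and for the same reason no replicate was left out. Values are given as control, then metformin, unless said otherwise. The settings for H3K4me3-free stretches were chosen after seeing the data.

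Covered length after metformin relative to control was 1.15 for H3K4me3 and 1.12 for H3K27me3 with values of at least 5 and 1.5, 1.12 and 1.06 with intervals within 1 kb merged, and 1.11 and 1.07 with lists of equal length. H3K4me3 sharing was 66.7% and 53.5% with overlap of at least 50% of the interval, 88.9% and 78.7% at values of 5 or more, and 81.0% and 75.4% with merging. H3K27me3 sharing was 33.2% and 29.9% with at least 50%, 46.2% and 44.7% at 1.5 or more, and nearly the same with merging. At a ratio of 1.5, 0 H3K4me3 bins were larger after metformin, and 4 H3K27me3 bins were larger and 1 smaller. The count of 6 smaller H3K27me3 bins depended on the bins: it was 1 with bins of 2 Mb and 2 with bins shifted by 0.5 Mb. Long H3K27me3 regions numbered 0 and 2 from 20 kb, 92 and 112 from 5 kb, and 55 and 65 with merging, so the near equality at 10 kb did not hold at the other settings. Gaps of 200 kb or more numbered 59 and 60 for H3K4me3, 54 and 51 for H3K27me3 and 20 for all lists. With the value limits there were 6 gaps of 500 kb in all lists. Sites with both marks numbered 27 and 56 at H3K4me3 values of 5 or more. Broad domains numbered 210 and 253 from 2 kb, and 167 and 200 with merging. The long-arm to short-arm ratio with the value limits was 1.86 and 1.88 for H3K4me3 and 1.30 and 1.48 for H3K27me3. For H3K27me3 inside and outside H3K4me3-free stretches the metformin to control ratio was 1.03 and 1.16 with the value limits, 0.96 and 1.11 with merging, 0.97 and 1.12 with equal list length, and 1.02 and 1.16 with stretches of 200 kb or more. Inside was below outside in each of these, and the cause of its crossing 1 was not tested.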
